A study of Homo sapiens with 13 samples.

Results

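The HOX genes of the 4 human clusters were followed by bulk RNA sequencing in RUES2, an established line of human embryonic stem cells, here with a GFP::SMAD4 fusion. Members were all genes with a symbol of HOX, a cluster letter from A to D and a number, together with an Ensembl gene ID, and 39 of the 61541 human genes in the count tables met this rule. The series has 13 libraries. The time series comprised 7, made from total RNA depleted of ribosomal RNA: 2 at 0 h and 1 each at 4, 12, 20, 28 and 42 h with 100 ng/mL BMP4, the ligand, 5 µM IWP2, a blocker of Wnt secretion, and RI, written as such in the labels beside a culture protocol with ROCK inhibitor. The labels of both 0 h libraries name this treatment too, and they were read as cells collected when it began. The dose response comprised 6 polyA-selected libraries at 5 h: 5 with the same 3 agents and LDN-193189 (LDN), which inhibits the BMP receptors, at 0, 10, 30, 100 or 300 nM, and 1 untreated library whose label names the medium mTeSR alone. Every library came from the same tagged line, no group other than 0 h had a second library, and nothing in the labels says whether the 0 h libraries came from separate cultures, so that p-values measure the spread between these samples only, which may be technical.

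HOX genes encode homeodomain transcription factors that give cells of the embryo their position along the head-to-tail axis. They lie in 4 clusters, and members with the same number in different clusters (paralogues) descend from the same ancestral gene. In the embryo low-numbered genes usually come on before high-numbered ones and nearer to the head, an order called colinearity, and in pluripotent cells the clusters are known as targets of polycomb repression. The question put to the data was which members came on under BMP4 with Wnt secretion blocked, when, in what order along each cluster, and how far their early level followed the LDN dose.

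By GENCODE release 44 on GRCh38, HOXA has 11 members at chr7:27092993-27200091 on the minus strand, HOXB 10 at chr17:48528526-48728750 on the minus strand, HOXC 9 at chr12:53938831-54056030 on the plus strand and HOXD 9 at chr2:176092721-176190907 on the plus strand. RefSeq promoter sequences (GRCh38.p14) were found for 20 of the 39, with 19 distinct windows since HOXC4 and HOXC5 share theirs. The 250 bases before the transcript start are printed for 4 members with such an entry that the results turn on: HOXD1, which peaked at 12 h and followed the LDN dose, HOXA13 and HOXD13, which came on at the high-numbered end of their clusters, and HOXB1, a late member at the low-numbered end. They lie at chr2:176188418-176188667, chr7:27200092-27200341 (minus strand), chr2:176092471-176092720 and chr17:48531012-48531261 (minus strand), and run 5′ to 3′ in the direction of transcription. Capitals mark matches on either strand to any of 6 motifs, chosen after the values were seen: GGCGCC and GGAGCC (GC-rich letters known from BMP SMAD sites), CAGACA (which holds the core of the SMAD element), TGATNNAT (the PBX and HOX pair), TTTATG (CDX) and TATAAA (the TATA box).
HOXD1: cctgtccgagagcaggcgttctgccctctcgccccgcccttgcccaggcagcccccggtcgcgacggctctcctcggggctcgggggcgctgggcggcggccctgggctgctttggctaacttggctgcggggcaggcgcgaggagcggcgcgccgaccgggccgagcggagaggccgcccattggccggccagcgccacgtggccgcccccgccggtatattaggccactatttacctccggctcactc
HOXA13: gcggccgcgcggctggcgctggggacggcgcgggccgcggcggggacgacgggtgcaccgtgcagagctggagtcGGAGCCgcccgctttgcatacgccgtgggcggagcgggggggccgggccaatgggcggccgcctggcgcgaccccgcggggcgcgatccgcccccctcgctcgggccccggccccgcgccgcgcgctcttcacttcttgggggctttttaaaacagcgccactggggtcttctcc
HOXD13: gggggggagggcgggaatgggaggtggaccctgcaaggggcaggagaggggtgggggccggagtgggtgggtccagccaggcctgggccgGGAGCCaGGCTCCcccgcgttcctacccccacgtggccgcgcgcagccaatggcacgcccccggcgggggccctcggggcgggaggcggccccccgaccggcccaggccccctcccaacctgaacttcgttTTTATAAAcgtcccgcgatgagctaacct
HOXB1: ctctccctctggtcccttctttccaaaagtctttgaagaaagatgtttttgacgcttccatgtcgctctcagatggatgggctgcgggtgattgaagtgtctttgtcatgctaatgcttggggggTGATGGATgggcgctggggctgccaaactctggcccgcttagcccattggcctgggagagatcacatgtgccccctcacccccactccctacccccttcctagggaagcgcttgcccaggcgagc

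The HOXD1 window held none of the 6 motifs, which says only that these letters are not in it. HOXA13 held GGAGCC 175 bases before the start. HOXD13 held GGAGCC 160 bases before the start and, on the other strand, 153 bases before it, and TATAAA on both strands in overlapping letters that begin 29 and 27 bases before it. HOXB1 held TGATNNAT 125 bases before the start. Over all 34788 distinct windows of this length, GGAGCC was in 30.6%, TGATNNAT in 6.49% and TATAAA in 10.8%, against 8, 3 and 4 of the 19 HOX windows. For the other motifs the shares were 16.4% for GGCGCC, 13.6% for CAGACA and 9.65% for TTTATG, against 4, 3 and 3 HOX windows. The median HOX window held 21 CG dinucleotides and the median of all windows 11, while HOXA13 held 40, HOXD1 31, HOXD13 21 and HOXB1 7.

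The human gene counts came to 37956244 to 71331540 per library in the time series and 15600645 to 33989489 in the dose response, so a level of 3 counts, used as the floor, was 0.0421 to 0.0790 CPM (counts per 1000000 human gene counts) in the former and 0.0883 to 0.192 CPM in the latter. Mitochondrial genes took 2.01% to 4.29% of the counts in the time series except in 0 h replicate 1 (7.60%), and 4.22% to 4.49% in the dose response except in the untreated library (7.89%). Of the marker lists, all 8 amnion-like markers were called higher at 42 h than at 0 h (as were 18.6% of all genes tested), and their summed level went from 17.2 and 22.2 CPM at 0 h to 4702 CPM at 42 h. The 6 pluripotent markers summed to 5365 and 5845 CPM at 0 h and 3057 CPM at 42 h, with 4 called lower (as were 18.0% of all genes). The 6 primitive streak and mesoderm markers summed to between 3.0 and 8.51 CPM in the time series, where EOMES was called higher at 4, 12, 20 and 28 h and TBX6 at 20, 28 and 42 h. EOMES had 0.211 and 0.308 CPM at 0 h, a maximum of 3.52 CPM at 20 h and 0.294 CPM at 42 h, while TBXT had at most 0.294 CPM and MSGN1 was at 0 throughout. The 5 trophoblast markers summed to at most 0.523 CPM, with ELF5, CGB3 and SIGLEC6 at 0 at 42 h. The neural list summed to 274 to 484 CPM, the neural crest list to 82.6 CPM at most and 2.06 CPM at 42 h, the endoderm list to at most 3.82 CPM, and the extraembryonic mesoderm list to 36.3 to 103 CPM in the time series. Within these lists SOX17 was called higher from 20 h on and POSTN from 12 h on. OTX2, PAX6, FOXD3, FOXA2, COL6A3 and VIM were called lower at 42 h. Of all genes tested, 18.6% were called higher at 42 h and 18.0% lower. The part of these cell states in the HOX results was not tested. In bulk samples fewer cells of a type and less RNA per cell cannot be told apart.

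HOX genes were close to silent at the start and reached the highest summed level at 42 h. The 39 members together had 13 and 24 counts in the 0 h libraries, then 75, 225, 338, 795 and 8735 counts at 4, 12, 20, 28 and 42 h. On the CPM scale that was 0.343 and 0.336, then 1.65, 4.03, 5.58, 13.5 and 143, so that the level at 42 h was 420-fold above the mean of the 0 h libraries and 10.6-fold above 28 h. No member had more than 5 counts in a 0 h library. At 42 h, 16 members had at least 10 counts, against 4, 4, 5 and 10 at 4, 12, 20 and 28 h and 0 in both 0 h libraries.

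The make-up of this sum changed with time. HOXD took 55.1% of all HOX counts at 12 h, HOXC 50.3% at 20 h and HOXB 64.0% at 42 h. HOXC13, HOXB6 and HOXB2 held 84.8% of the HOX counts at 42 h, a share that depends on gene length too. The HOXA cluster had 76 counts at 42 h, 0.870% of the total, and HOXD 62 counts.

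**Figure D1:**
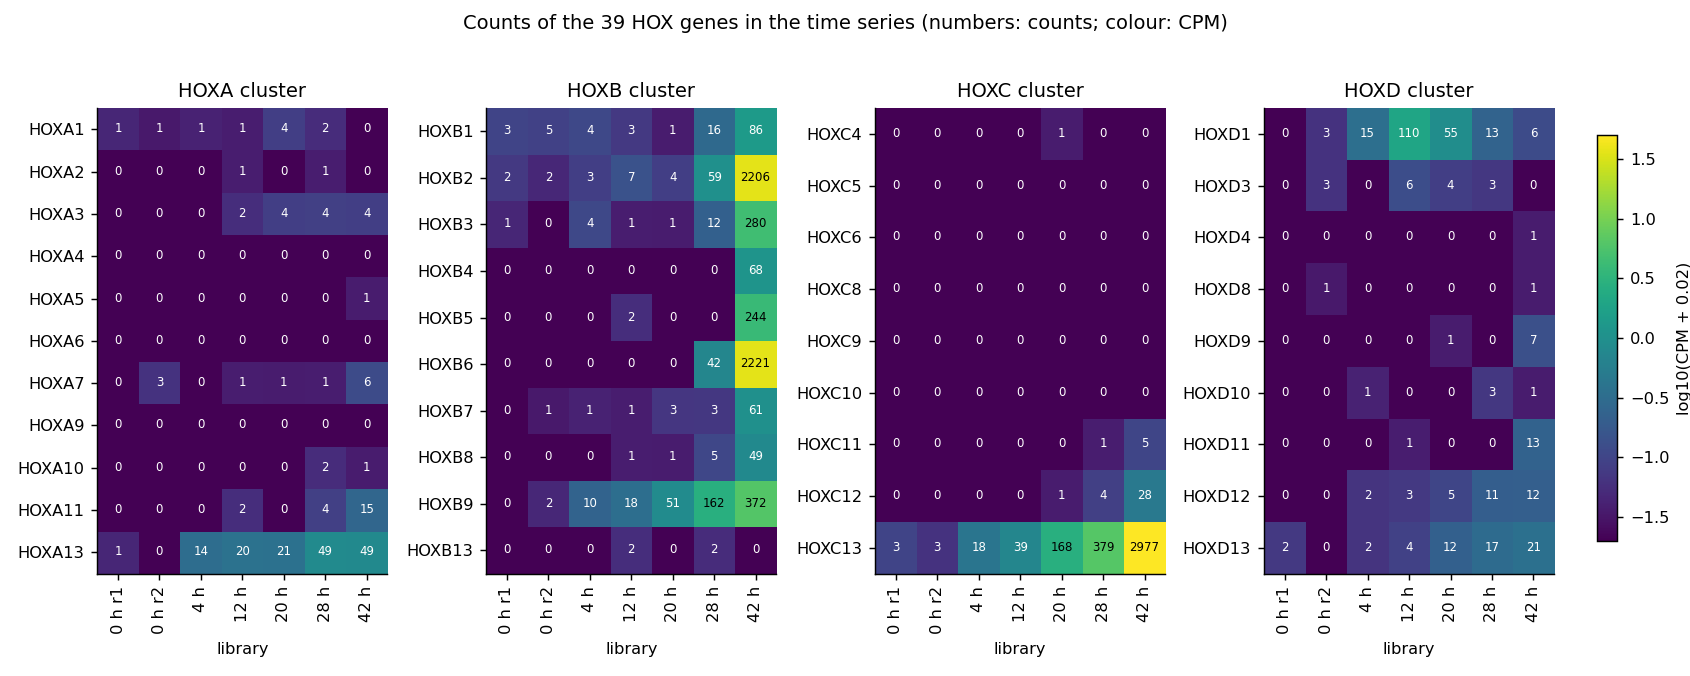
Counts of all 39 HOX genes (rows, by cluster and paralogue number) in the 7 time-series libraries (columns; r1 and r2 are the 0 h replicates). The printed numbers are counts and the colour is log10(CPM + 0.02). HOXB1 to HOXB9 fill at 42 h, while in HOXA and HOXC most counts after 0 h lie at number 13. In HOXD most lie at HOXD1 from 4 to 20 h and at HOXD11 to HOXD13 at 42 h.

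Of the 39 members, 17 reached 10 counts in at least 1 time-series library: HOXA11, HOXA13, HOXB1 to HOXB9, HOXC12, HOXC13, HOXD1, HOXD11, HOXD12 and HOXD13. The other 22 had at most 7 counts in any time-series library (HOXD9 at 42 h). HOXA4, HOXA6, HOXA9, HOXC5, HOXC9 and HOXC10 had 0 counts in all 13 libraries, which at 42 h allows a level of up to 0.0603 CPM by the 95% counting interval. In the HOXC cluster, HOXC4 to HOXC10 had no more than 1 count in any time-series library. At least 1 CPM in some library was reached by HOXB1, HOXB2, HOXB3, HOXB4, HOXB5, HOXB6, HOXB9, HOXC13 and HOXD1, whose values are given by library, with HOXB7 just outside at 0.997 CPM.

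The HOXB genes from HOXB2 to HOXB6 came on late, HOXB2, HOXB3 and HOXB6 at 28 h and HOXB4 and HOXB5 at 42 h by the rule given with the order of onset. HOXB2, a regulator of the hindbrain (chr17:48540894-48545109), had 2 and 2 counts at 0 h and 3, 7, 4, 59 and 2206 at 4, 12, 20, 28 and 42 h. HOXB6 (chr17:48595751-48604992), a gene of the trunk, had 0 counts in every library up to 20 h, then 42 at 28 h and 2221 at 42 h. In both genes the 28 h library was the first above 10 counts, and most counts came from 42 h. Against 0 h, HOXB2 was 985-fold higher at 42 h (counting interval 384 to 3618, from 4 counts at 0 h), and HOXB6 at least 1322-fold higher, taking the floor of 3 counts over both 0 h libraries. From 28 to 42 h the ratios were 36.1 (27.9 to 47.6) for HOXB2 and 51.1 (37.6 to 71.0) for HOXB6. These and all intervals here are at 95% (exact, conditional on the counts) and cover counting error only.

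HOXB3 (chr17:48548870-48604912), another hindbrain gene, had 1 and 0 counts at 0 h, 4, 1, 1 and 12 from 4 to 28 h, and 280 at 42 h. HOXB5 (chr17:48591257-48593779) had 2 counts at 12 h, 0 in every other library up to 28 h, and 244 at 42 h. HOXB4 (chr17:48575507-48578350), known for its part in blood stem cells, had 0 counts in each of the 6 earlier libraries and 68 at 42 h. For HOXB5 and HOXB4 the 42 h library alone stood above the floor. The ratios of 42 h to 0 h were at least 145 for HOXB5, at least 40.5 for HOXB4 and 500 (89.0 to 19821) for HOXB3, which rests on 1 count at 0 h.

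HOXB1, the first member of the cluster and a marker of a single hindbrain segment (chr17:48528526-48531011), had more counts at 0 h than any other HOX gene. It had 3 and 5 counts at 0 h, 0.0746 ± 0.00632 CPM (SD, n = 2), then 4, 3, 1, 16 and 86 counts. Its level at 42 h was 19.2-fold above 0 h (9.32 to 45.9). HOXB7 and HOXB8, the neighbours of HOXB6, had 0 to 5 counts up to 28 h and 61 and 49 at 42 h. HOXB13, which lies 102 kb beyond HOXB9 by transcript starts, had no more than 2 counts anywhere.

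HOXB9, a gene of the thorax and the highest number in the compact part of the cluster (chr17:48621156-48626358), took another course. It had 0 and 2 counts at 0 h, then 10, 18, 51, 162 and 372. Every later library was above both 0 h libraries, and the level was higher at each time than at the time before. From 28 to 42 h it went up 2.22-fold (1.84 to 2.68), an interval below those of HOXB2, HOXB3 and HOXB6 over the same step. At 20 h HOXB9 alone of the HOXB genes was above 4 counts.

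To set levels of different genes side by side, FPKM was used (fragments scaled for gene length and library depth), since counts and CPM also depend on gene length. At 42 h HOXB2 had 46.78 FPKM, HOXB6 25.32, HOXC13 23.21, HOXB3 3.37, HOXB9 2.61, HOXB5 2.5, HOXB7 1.17, HOXB1 0.84, HOXB4 0.64 and HOXB8 0.57. The order of HOXB6 and HOXC13, or of HOXB9 and HOXB5, has no replicate spread to set it against. At 28 h HOXC13 (3.06 FPKM) and HOXB9 (1.18) were above HOXB2 (0.80) and HOXB6 (0.50).

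**Figure D2:**
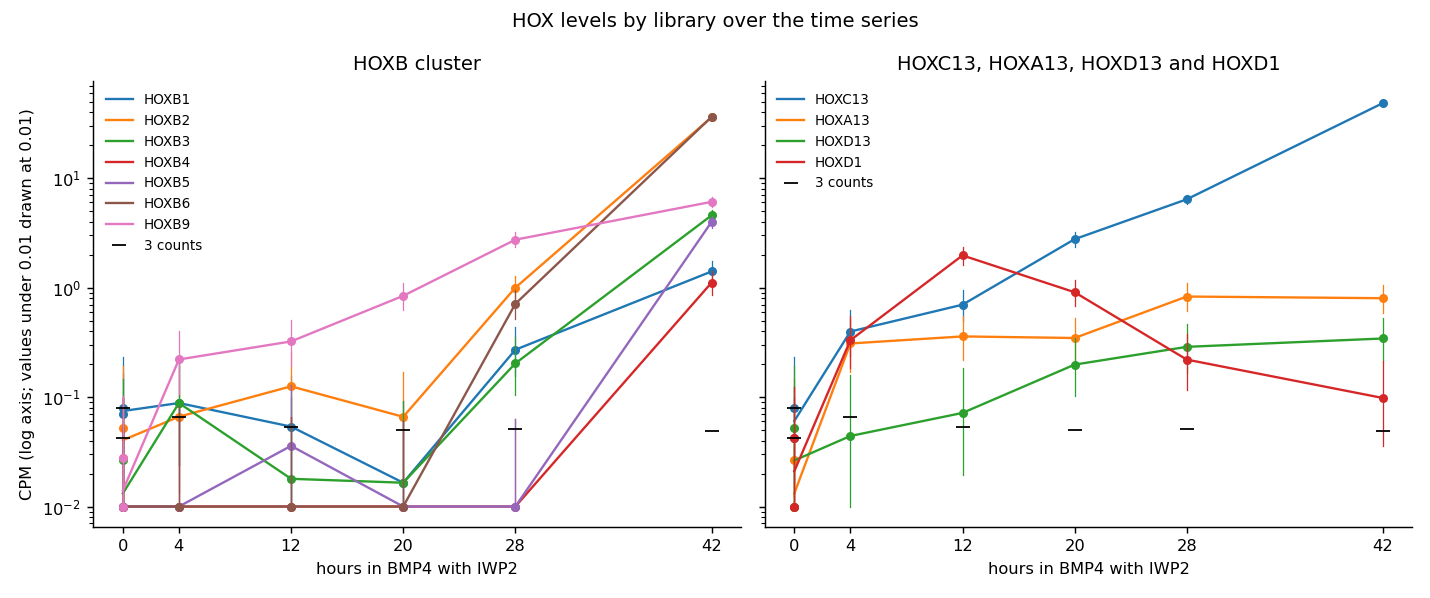
CPM (log axis) against hours for 7 HOXB genes (left) and for HOXC13, HOXA13, HOXD13 and HOXD1 (right). Points are libraries, lines join the 0 h mean to the single later libraries, vertical bars are 95% counting intervals and black dashes the level of 3 counts. HOXB9, HOXC13 and HOXA13 stay at 10 counts or more from 4 h on, the other HOXB genes from 28 or 42 h on, and HOXD1 peaks at 12 h.

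In the HOXC cluster the high-numbered end was expressed and the rest was not. HOXC13, known from hair and nail development (chr12:53938831-53946544), had 3 and 3 counts at 0 h, 0.0605 ± 0.0262 CPM (SD, n = 2), then 18, 39, 168, 379 and 2977. Each later library was above the one before, and at 42 h it was the HOX gene with the most counts, 886-fold above 0 h (407 to 2417). HOXC12, the next gene at 16.1 kb, had 1, 4 and 28 counts at 20, 28 and 42 h, and HOXC11 at 34.3 kb had 1 and 5 at 28 and 42 h. Per length these were 23.21, 0.15 and 0.04 FPKM at 42 h for HOXC13, HOXC12 and HOXC11, and from HOXC10 on there were 0 counts.

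The high-numbered ends of HOXA and HOXD also gained counts, at lower levels per length than HOXC13. HOXA13 (chr7:27193503-27200091), a gene of the distal limb and the urogenital tract, was singled out after its values were seen and had 1 and 0 counts at 0 h, then 14, 20, 21, 49 and 49. Its levels at 28 and 42 h did not differ beyond counting error (ratio 0.965, 0.636 to 1.46). HOXA11 reached 15 counts at 42 h and HOXA10 at most 2. HOXD13 (chr2:176092721-176095944), a gene of the digits, had 2 and 0 counts at 0 h, then 2, 4, 12, 17 and 21, and HOXD12 and HOXD11 ended at 12 and 13. At 42 h the number 13 genes of HOXA, HOXC and HOXD stood at 0.17, 23.21 and 0.16 FPKM, and HOXB13 at 0 counts.

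**Figure D3:**
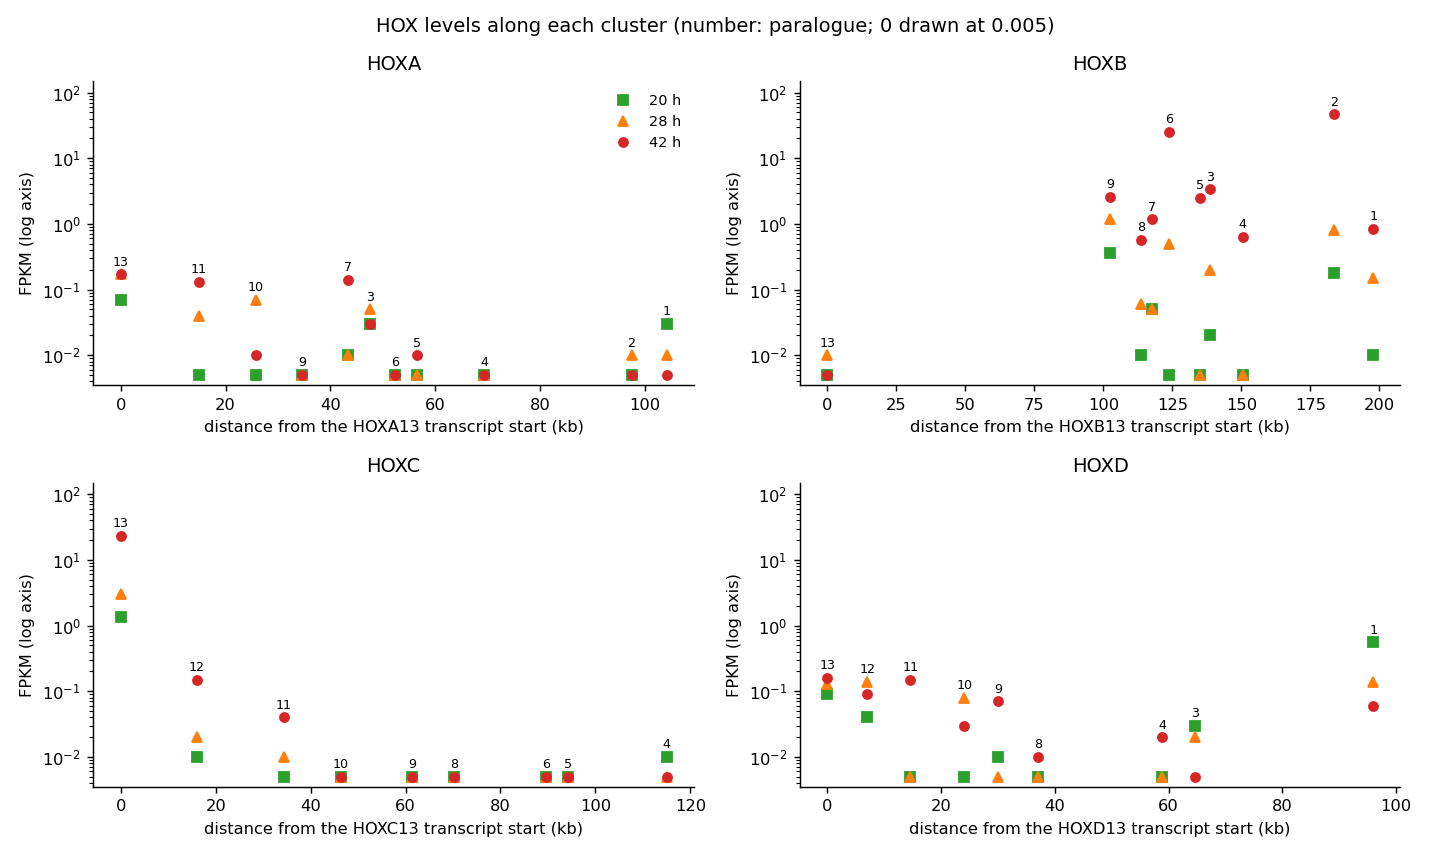
FPKM (log axis, 0 drawn at 0.005) of each member at 20, 28 and 42 h against the distance in kb of its transcript start from that of the number 13 gene of its cluster. Printed numbers are paralogue numbers. In HOXC the level at 42 h falls from HOXC13 over HOXC12 to HOXC11, and in HOXB it is highest at HOXB2 and HOXB6 at 42 h but at HOXB9 at 20 and 28 h.

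HOXD1, the lowest number of its cluster (chr2:176188668-176190907), rose and fell within the time series. It had 0 and 3 counts at 0 h, then 15, 110, 55, 13 and 6. The 12 h library was the highest, at 1.97 CPM (1.62 to 2.38), 71.8-fold above 0 h (23.9 to 353), and at 42 h 0.0980 CPM remained (0.0360 to 0.213). No other member with at least 10 counts peaked before 28 h. Between HOXD1 and HOXD9, HOXD3 had at most 6 counts (at 12 h) and HOXD4 and HOXD8 at most 1 in the time series.

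A sustained onset was taken as the first time from which a gene stayed at or above 2 times the higher 0 h library and at or above 10 counts. By this rule HOXA13, HOXB9 and HOXC13 had their onset at 4 h and HOXD13 at 20 h. HOXB1, HOXB2, HOXB3, HOXB6 and HOXD12 followed at 28 h, and HOXA11, HOXB4, HOXB5, HOXB7, HOXB8, HOXC12 and HOXD11 at 42 h. HOXD1 passed the rule from 4 to 28 h and had no sustained onset. HOXB9, with exactly 10 counts at 4 h, lay just inside the count limit, and HOXD9, with 7 counts at 42 h, just outside it.

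The order of onset ran neither from low to high nor from high to low numbers throughout. In HOXB the member with the earliest onset was HOXB9, and in HOXA, HOXC and HOXD number 13 came before 12 and 11 wherever these had an onset. HOXD1 goes the other way, as the lowest number of HOXD passed the rule at 4 h, before HOXD13, though not up to 42 h. Within HOXB1 to HOXB8 the onsets at 28 h (numbers 1, 2, 3 and 6) and at 42 h (4, 5, 7 and 8) were interleaved. The limit of 10 counts makes the rule depend on level, so that these orders can follow level as well as time. At 28 h HOXB8 had 5 counts and HOXB3 12, with 49 and 280 at 42 h. HOXC12 had 4 counts and HOXC13 379 at 28 h, with 28 and 2977 at 42 h. At 20 h HOXD12 had 5 counts and HOXD13 12. The midpoint of the rise, by linear interpolation between the 0 h mean and the highest library, fell at 33.8 to 35 h for HOXB1 to HOXB8, at 29.3 h for HOXB9, at 33.9 h for HOXC13, at 21.2 h for HOXA13 and HOXD12 and at 19.2 h for HOXD13. It fell at 7.24 h for HOXD1, the earliest of the 17, at 32.3 h for HOXA11, at 33.8 h for HOXC12 and at 35 h for HOXD11. With a gap of 14 h between the last libraries, midpoints between 28 and 42 h mostly reflect that gap and do not order these genes.

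Over the 17 members, the rank correlation (Spearman's rho) of paralogue number with the midpoint time was -0.36, and with the log2 change from 0 to 42 h, 0 h levels raised to the floor, -0.19. In HOXB it was -0.28 and 0.083 (n = 9 genes), and in HOXD 0.20 and 0.80 (n = 4 genes). The genes of a cluster are neighbours measured in the same libraries, some with shared exons, and no p was computed. For comparison, strict low-to-high order would give a positive rho with the midpoint time. All 9 HOXB midpoints (29.3 to 35 h) lie in the gap between the last libraries, within which midpoints do not order genes. Those of HOXA11, HOXC12, HOXC13 and HOXD11, among the 17, lie there too. The rho with the midpoint time therefore cannot test such an order in HOXB, and it is not read as a test over the 17 members.

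In the fits across all genes, 9 HOX genes passed the filter of a mean of 0.2 CPM over the time series, and 30 did not. HOXB1, HOXB3, HOXB5 and HOXB6 passed only through their highest library and so had to differ between libraries. The lowest mean inside the filter was 0.283 CPM (HOXB1) and the highest outside it 0.164 CPM (HOXB7). Each time was tested against 0 h with edgeR's quasi-likelihood test and Benjamini-Hochberg adjustment over all 21291 genes tested, where the error rests on the 2 libraries at 0 h. Fits here use TMM scaling, and the SE is the log2 change divided by the square root of its F statistic.

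Of the 5 members that pass the filter without their highest library, HOXA13, HOXB9, HOXC13 and HOXD1 were called higher at 4 h. Of all genes tested 3.94% were. The same 4 were called at 12 h (6.34% of all genes) and at 20 h (11.5%). HOXB2 was added at 28 h, where 12.4% of all genes were called. Without its 42 h library HOXB2 passes the filter, at a mean of 0.223 CPM, only through 28 h itself (0.999 CPM). Its call at 28 h therefore rests on values that let it into the test. HOXB3 and HOXB6 were called at 28 h too, but only their 42 h level had let them into the test. At 42 h HOXA13, HOXB2, HOXB9 and HOXC13 were called and HOXD1 was not, among the 5 members that pass the filter without their highest library. HOXB1, HOXB3, HOXB5 and HOXB6 were called too, but the 42 h library had let them into the test, so no count over the 9 is read against the 18.6% of all genes called higher. None of the 9 was called lower at any time, but with at most 5 counts in a 0 h library they had no room to fall. A member this low at 0 h passes the filter only by being higher later, so the shares of all genes are background only.

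For HOXC13 the log2 change from 0 h was 2.65 (SE 0.67, edgeR adjusted p = 0.00274) at 4 h and 10.00 (SE 0.46, adjusted p = 2.15e-101) at 42 h. HOXD1 changed by 6.02 (SE 0.74, adjusted p = 3.74e-14) at 12 h, by 2.998 (SE 0.93, adjusted p = 0.00900) at 28 h and by 2.06 (SE 1.08, adjusted p = 0.124) at 42 h. HOXB1 changed by 1.92 (SE 0.81, adjusted p = 0.0834) at 28 h and by 4.50 (SE 0.69, adjusted p = 1.09e-09) at 42 h. With DESeq2, which tested the same genes, HOXC13 alone of the 4 was called at 4 h, beside 1.65% of all genes called higher. With limma on log2(FPKM + 0.1) no gene at all passed at any time, and 2510 to 7659 genes had an unadjusted p under 0.05.

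The trend of log2 level over hours was called higher for HOXA13, HOXB2, HOXB9 and HOXC13 (edgeR, adjusted p at most 0.0323), with slopes of 3.85 (SE 1.14), 11.37 (SE 1.01), 7.27 (SE 0.76) and 9.03 (SE 0.46) per 42 h. HOXB1, HOXB3, HOXB5 and HOXB6 were called as well, again let in by their 42 h value, and nothing is read from their number beside the 16.8% of all genes called higher. HOXD1, with its peak at 12 h, had 0.11 per 42 h (SE 2.74, adjusted p = 0.980). Without the 42 h library 5 HOX genes passed the filter and 4 were called, beside 10.3% of all genes called higher. HOXB2, among these 4, passed there only through its 28 h level. HOXA13 lost its call without 0 h replicate 1 (adjusted p = 0.0853) and without the 28 h library (adjusted p = 0.0695).

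The dose response asked how far HOX levels at 5 h followed BMP signaling. Over all 39 members the counts were 69, 46, 24, 13 and 8 at 0, 10, 30, 100 and 300 nM LDN and 2 in the untreated library. HOXD1 gave 36, 22, 9, 8 and 1 of these, and 0 of the untreated ones. Its level was 1.25 CPM (0.877 to 1.73) without LDN, 0.647 at 10 nM, 0.277 with 30, 0.257 with 100 and 0.0302 with 300 nM, lower at each higher dose, although 30 and 100 nM differed by a single count.

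HOXD1 was the only HOX gene with a mean of 0.2 CPM over the 5 doses and hence the only 1 tested. It was called higher with the study's relative SMAD4 signaling (log2 slope 5.74 per unit of that measure, SE 0.95, edgeR adjusted p = 0.00114), among 8.23% of the 18859 genes tested. Between 0 and 300 nM LDN its ratio was 41.5 (6.99 to 1685), which rests on 1 count at 300 nM. Without BMP4, in the untreated library, it had 0 counts, so the library with BMP4 and no LDN was at least 6.51-fold higher by the floor of 3 counts. These last 2 libraries differ in IWP2 as well and, by their labels, in RI, the untreated library is shallower (15600645 counts against 28742320) and has a higher mitochondrial share (7.89% against 4.22%), and with a single library each no test was made. The part of these differences was not tested. With limma on FPKM the call of the slope was lost (adjusted p = 0.0555).

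The other members were near the floor at 5 h. HOXC13, the next most abundant, had 11, 7, 8, 1 and 2 counts at the 5 rising doses and 0 untreated, with the 3 lower doses above the 2 higher ones. HOXB9 had 5 and 6 counts at 0 and 10 nM and 0 in the other libraries, HOXD13 had 3 and 5 and then 0, and HOXA13 had 5, 2, 1, 0 and 0. With no filter on low counts, HOXB9 was also called (edgeR adjusted p = 0.0450), and HOXC13 and HOXA13 were not (adjusted p = 0.0885 and 0.0875). The late HOXB genes had few counts or none at 5 h. HOXB1 had 1, 0, 5, 1 and 1 counts over the doses and 2 untreated, HOXB2 had 2, 1, 1, 1 and 0 and then 0, and HOXB3 had 2, 1, 0, 0 and 1 and then 0. HOXB4, HOXB5 and HOXB6 had 0 counts in all 6 dose-response libraries. The 38 members without HOXD1 summed to 1.15, 0.706, 0.461, 0.161 and 0.211 CPM over the doses and 0.128 CPM untreated. The members that had at least 3 counts without LDN at 5 h were HOXD1, HOXC13, HOXB9, HOXA13 and HOXD13.

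**Figure D4:**
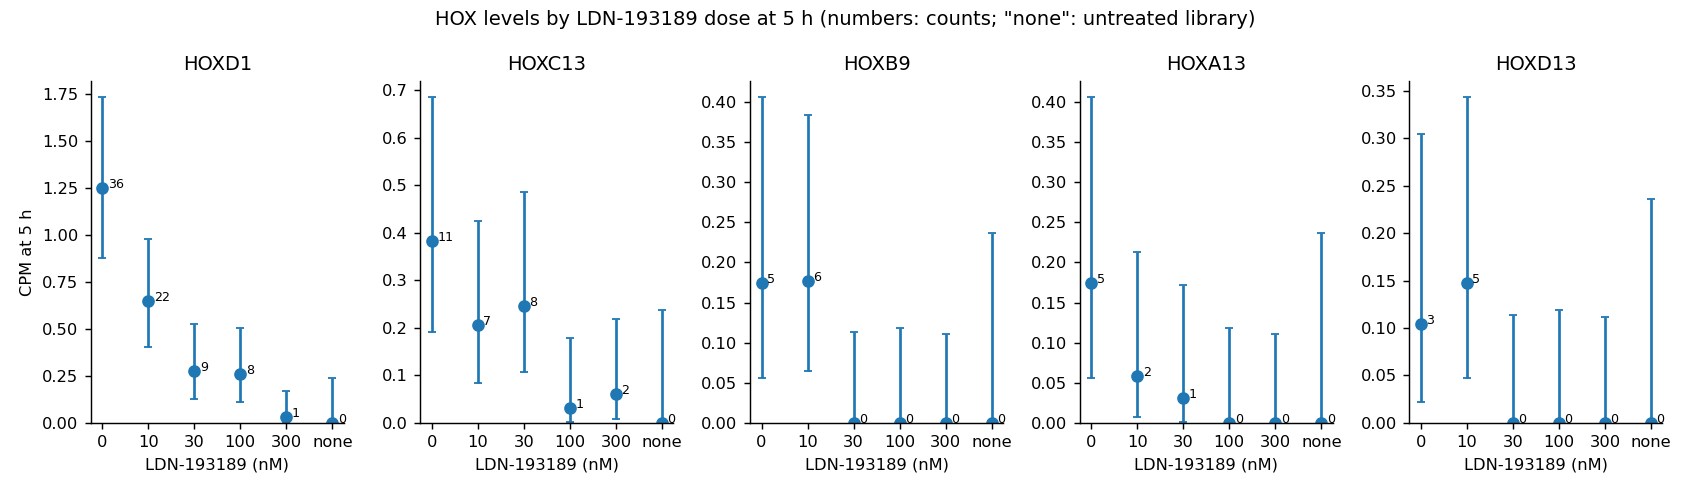
CPM at 5 h of the 5 HOX genes with the most counts without LDN, against the LDN-193189 dose in nM, with the untreated library at the right ("none"). Each point is 1 library, bars are 95% counting intervals and printed numbers are counts. HOXD1 is lower at each higher dose, from 36 counts to 1, and HOXB9 and HOXD13 have 0 counts from 30 nM on. Choosing genes by their counts without LDN favours such a fall where counts are few.

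At 4 h of the time series HOXD1 had 0.331 CPM and HOXC13 0.397 CPM, and at 5 h without LDN 1.25 and 0.383 CPM. These libraries differ in RNA kit, in ribosomal depletion against polyA selection and in time, which cannot be told apart, and they were not compared.

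Of the noncoding genes listed for the clusters, HAGLR and HOXC13-AS had the most counts. HAGLR, which runs antisense from the HOXD1 end of its cluster, had 2 and 0 counts at 0 h, then 37, 168, 90, 43 and 3, with its maximum in the same 12 h library as HOXD1. In the dose response it had 44, 54, 30, 17 and 4 counts and 3 untreated, and it was called higher with SMAD4 signaling (log2 slope 4.19, SE 0.80, edgeR adjusted p = 0.00311). HAGLR had 1.22 to 3.33 times the counts of HOXD1 in the libraries where both were above 3. HAGLROS, from the same region, had at most 9 counts.

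HOXC13-AS, antisense to HOXC13, had 0 counts at 0 h, then 10, 20, 45, 145 and 848, and was called higher at 42 h (edgeR adjusted p = 1.55e-60). Its counts were 0.556 and 0.513 of those of HOXC13 at 4 and 12 h and 0.268 to 0.383 of them from 20 h on. Of the 18 noncoding genes listed for the clusters only HAGLR and HOXC13-AS passed the time-series filter, and HOTTIP, HOXA-AS3, HOXA10-AS, HOXC-AS1, HOXC-AS2 and HOXC-AS3 had 0 counts at 42 h. HOTTIP, antisense to HOXA13, had 4, 8, 1, 4 and 0 counts from 4 to 42 h. HOXB-AS1, beside HOXB2 and HOXB3, had 2 and 35 counts at 28 and 42 h.

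**Figure D5:**
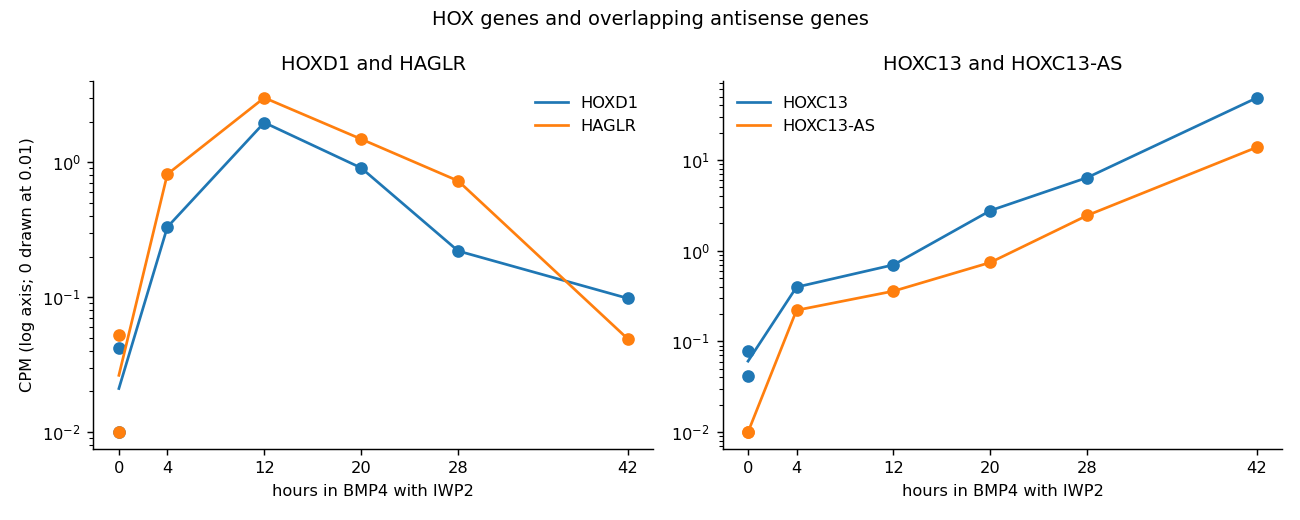
CPM (log axis, 0 drawn at 0.01) over hours of HOXD1 with HAGLR (left) and of HOXC13 with HOXC13-AS (right). Points are libraries and lines join the 0 h mean to the single later libraries. HOXD1 and HAGLR both peak at 12 h, and HOXC13 stays above HOXC13-AS at each time.

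Exons of 10 of the 17 members with at least 10 counts overlap those of another gene. HAGLR shares 145 bases with HOXD1 and HOXC13-AS 172 bases with HOXC13, which is 7.69% and 7.30% of the members' exon bases. HOXB3 and HOXB6, on the same strand, share 433 bases, 16.6% of those of HOXB6, and HOXB3 and HOXB4 share 44. A further antisense model, ENSG00000279160, covers 52.4% of the HOXD1 exons and had at most 4 counts. The strand setting of the counting is not given in the sources used here, and without it the reads of a gene and its antisense partner cannot be told apart, so the split of counts within these pairs is uncertain.

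The genes that flank the clusters did not share one course. EVX1, a homeobox gene next to HOXA13, had 0 and 1 counts at 0 h, 14, 18, 85, 59 and 21 later, and 11, 11, 7, 0 and 0 over the doses. LINC02086, between HOXB9 and HOXB13, had 0 and 1 counts at 0 h and 16, 7, 41, 48 and 36 later. Of the 11 flanking genes tested at 42 h, 3 were called higher (EVX1, CALCOCO1 and SMUG1) and 1 lower (TTLL6), beside 18.6% and 18.0% of all genes, with a median log2 change of 0.33 beside -0.05 over all genes tested.

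CDX factors, homeodomain proteins known to act upstream of HOX genes in the trunk, were measured in the same libraries. CDX2 had 0.0263 and 0 CPM at 0 h, then 1.10, 1.47, 4.31, 22.7 and 25.9 CPM, with its largest step in CPM between 20 and 28 h. CDX1 had 207 counts at 42 h and 34 at 28 h. CDX4 had 1.63 and 1.86 CPM at 0 h, 2.60 to 4.14 CPM from 4 to 28 h and 0.490 CPM at 42 h. At 42 h CDX2 was called higher and CDX4 lower than at 0 h (edgeR adjusted p = 0.00471 for CDX4), beside 18.6% and 18.0% of all genes. CDX1 was called higher too, but only its 42 h library had let it into the test, so nothing is read from that call. At 5 h CDX2 fell from 32 counts without LDN over 22, 12 and 6 to 0 at 300 nM, and CDX2 and CDX4 were both called higher with SMAD4 signaling.

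Of the TALE homeodomain proteins, which bind DNA together with HOX proteins, 3 of 9 were called higher at 42 h and 1 lower, beside 18.6% and 18.0% of all genes tested, with a median log2 change of 0.12. MEIS1 went from 0.263 and 0.238 CPM at 0 h to 10.98 CPM at 28 h and 62.0 CPM at 42 h, and PKNOX2 from 4.00 and 2.87 to 44.4 CPM. MEIS2 reached 3.56 CPM at 42 h, and PBX3 was the gene called lower.

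Genes of retinoic acid, a signal that opens the low-numbered HOX genes in the hindbrain, included 7 of 14 tested that were called higher at 42 h and 2 lower (median log2 change 0.76), beside 18.6% and 18.0% of all genes. ALDH1A2, which makes retinoic acid, went from 0.0790 and 0.168 CPM at 0 h to 11.4 CPM at 28 h and 121 CPM at 42 h (log2 change 10.07, edgeR adjusted p = 1.14e-119). CYP26A1, which breaks it down, fell from 4.64 and 4.96 CPM to 0.0825 CPM at 20 h and stood at 117 CPM at 42 h. Over the LDN doses CYP26A1 was called lower with SMAD4 signaling, as were 8.33% of all genes tested.

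Of 16 polycomb and opposing genes, 3 were called higher at 42 h (KDM6B, CBX8 and BMI1) and 3 lower (JARID2, CBX2 and KMT2A), with a median log2 change of -0.01. That is 3 of 16 each way, close to the 18.6% and 18.0% of all genes, and no result about the list. KDM6B, an enzyme that removes the polycomb mark, went from 8.22 and 6.63 CPM to 82.9 CPM, and JARID2, a polycomb partner, from 575 and 453 to 111 CPM. Of the posterior growth genes 4 were tested, of which WNT3A and NKX1-2 were called higher and FGF8 and GDF11 lower, beside 18.6% and 18.0% of all genes. These lists were drawn up with earlier results of these data known, and no set was tested.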

How the data were processed

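Bulk RNA-seq counts of 7 time-series and 6 dose-response libraries were analysed. According to their methods and processing notes, the authors used Cutadapt for trimming, STAR 2.7.8a for mapping to GRCh38 and RSEM 1.3.3 for the counts. The ENSEMBL release and the strand setting are not given in the sources used here. The deposited expected counts are whole numbers and not scaled for depth. The deposited FPKM values were normalized by the authors for length and depth, and served to compare levels between genes and as an alternative. Totals and CPM left out 5 features that are no human genes.

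The main tests were edgeR 4.0.16 quasi-likelihood fits with TMM factors and Benjamini-Hochberg adjustment (threshold 0.05), limited to genes whose mean reached 0.2 CPM: each time against 0 h, a trend over hours, and a trend over the 5 doses against relative SMAD4 signaling, read from the study's source data. DESeq2 1.42.0, limma 3.58.1, other scalings, other filters and left-out libraries were alternatives. The procedures were tested on simulated data. A chi-square test of the 0 h libraries over 21130 genes gave 120 per gene, so they were kept as 2 samples.

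The members, lists and motifs were chosen with earlier results of these data known. By rule, values in every library are given for members that reached 1 CPM in a library, and for up to 3 genes with the largest called change at 42 h in each other list. HOXA13, HOXA11, HOXB7, HOXB8, HOXC11, HOXC12, HOXD11, HOXD12, HOXD13, EVX1 with LINC02086, JARID2 and other genes outside this rule were named after their values were seen. Floors are 3 counts. Software was R 4.3.3 and Python 3.11.15 with pandas 2.3.3, matplotlib 3.10.9 and scipy 1.17.1.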

Additional observations from a re-analysis of the deposited data

How the results depend on the processing

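Of 368 values of single HOX genes under the alternatives, 332 kept their direction and side of the threshold, 36 lost their call and 0 changed direction. Members near silent at 0 h had little room to change direction. Of the 36, 25 were lost with limma on log2(FPKM + 0.1) and 8 with DESeq2. The cause of the changed counts that follow was not tested, beyond the fewer or more genes that another filter lets in. With a mean of at least 1 CPM, 4 HOX genes could be tested, HOXB2, HOXB6 and HOXB9 only through their 42 h library. At 4, 12 and 20 h 2 of them were called, beside 4.39%, 7.04% and 12.4% of all genes called higher. All 4 were called at 28 h, at 42 h and in the trend, beside 13.3%, 19.9% and 19.2%. With no filter 31 HOX genes could be tested over time and 15 over the doses. Of the 31, 16 were called at 42 h and 18 in the trend over hours, beside 10.6% and 9.71% of all genes called higher. Members near silent at 0 h can only be called higher, so the numbers called in this section are not read against the shares of all genes. Of the 15, 2 were called in the dose trend, beside 5.3%. With limma on FPKM 0 were called at 4, 12, 20, 28 and 42 h, as were 0 of all genes, and 0 in the dose trend, beside 2.03%. With DESeq2 1 was called at 4 h, beside 1.65% of all genes called higher. Leaving out 1 library gave 4 (without 42 h) to 8 calls in the trend over hours, beside 10.3% to 19.1% of all genes called higher. In the dose trend it gave 1 call each time, beside 5.25% to 7.83%. Scaling by library totals moved the median log2 change of all genes at 42 h from -0.05 to -0.33 and the share called higher from 18.6% to 13.4%, lower from 18.0% to 25.1%, and in the trend over hours HOXA13 lost its call (adjusted p = 0.0579). With 4 times the higher 0 h library as the limit, 0 members had an onset at 20 h. The rank correlation of paralogue number with the midpoint time was -0.33 to -0.36 over all members and -0.21 to -0.28 in HOXB when a 0 h library was left out, and -0.40 over all members on FPKM. That with the log2 change was -0.19 to -0.22 over all members and 0.2 to 0.8 in HOXD when a 0 h library was left out, and 0.033 in HOXB on FPKM. The values with the midpoint time, over all members and in HOXB, are not read as a test of order here either.

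With a mean of at least 1 CPM no HOX gene could be tested over the doses, and without a 0 h replicate the single times have no residual degrees of freedom and no test. No paired analysis was possible because only 0 h has replicate numbers. Depth limits the early times most: at 4 h the 4 calls rest on 10 to 18 counts.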
